A study of Mus musculus with 8 samples.

Results

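The genes described here are 4 keratins of simple epithelia (Krt7, Krt8, Krt18 and Krt19) and 6 transcription factors of the early trophoblast (Cdx2, Eomes, Elf5, Gata3, Hand1 and Tfap2c), 10 of the 22040 genes listed in the 2 deposited tables. They were taken by name, and their Ensembl identifiers were matched to symbols with the GENCODE mouse annotation. Their transcripts were measured by poly(A)-selected, strand-marking RNA sequencing of E14, a line of mouse embryonic stem cells. There were 4 groups of 2 libraries. Cct7 KD cells carried the doxycycline-inducible short hairpin plasmid pLKO-Tet on-shRNA Cct7-puro, and Cct7 KD Ctr cells were their controls with the vector pLKO-Tet on-Puro. Cct5 KD cells carried pLKO-Tet on-shRNA Cct5-puro, and Cct5 KD Ctr cells were a separate pair of vector controls. All 4 groups, controls included, had been infected with virus, selected for 14 days with puromycin at 0.5 μg/ml, picked as positive clones and given doxycycline at 2 μg/ml over 2 days, mainly in serum with Lif. Each target rests on 1 named hairpin plasmid. The number of clones is not given, and nothing says that libraries 1 and 2 of a group came from separate cultures, so a p-value below measures the spread between these libraries, which may be technical. Cct5 and Cct7 encode subunits of the CCT chaperonin, which folds actin and tubulin, and the study asked whether they hold back a change of state in embryonic stem cells.

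Keratins are the intermediate filament proteins of epithelia, and a filament is built from pairs of 1 type I and 1 type II chain. Krt7 and Krt8 are type II chains and Krt18 and Krt19 type I chains, and Krt8 with Krt18 is the first keratin pair made in the mouse embryo, in the trophectoderm. The trophectoderm is the outer layer of the blastocyst, from which the placenta forms. Cdx2 and Eomes are needed for the trophectoderm and its stem cells, Gata3 acts beside Cdx2 downstream of Tead4, and Elf5 keeps the trophoblast stem cell program going. Hand1 drives giant cell differentiation, and Tfap2c is an AP-2 factor of trophoblast and of germ cells that embryonic stem cells also use.

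In both knockdowns, as deposited, all 4 keratin transcripts were several times higher than in the vector controls. The Cct5 KD values are built on those of Cct7 KD, and without that component Krt19 was higher (log2 change 1.89), Krt7 slightly higher (0.27), and Krt8 (-0.31) and Krt18 (-0.46) lower. No trophoblast factor rose to the keratin levels, and the 4.66-fold higher mean of Cdx2 in Cct7 KD rests on few fragments. Cdx2, Elf5 and Gata3 stayed under 1 FPKM (fragments scaled to transcript length and library size) in every library that listed them, Eomes and Hand1 stayed between 0.931 and 1.98 FPKM, and Tfap2c was lower.

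Krt7, Krt8 and Krt18 lie on chromosome 15 and Krt19 on chromosome 11 (GRCm38, the build of mm10). Krt8 (ENSMUSG00000049382, 101996698 to 102004482, minus strand) and Krt18 (ENSMUSG00000023043, 102028180 to 102032027, plus strand) stand head to head, with 23698 bases between their start sites, and Krt7 (ENSMUSG00000023039) runs from 101411043 to 101430313 on the plus strand. Sequences before the RefSeq start of these 3 genes are shown because the genes share a chromosome and were high in the same libraries. They are the RefSeq promoter windows (GRCm38.p6, 250 bases before to 50 after the start), cut at the first base inside a coding-transcript exon. Each is read along the gene's strand, with matches to the searched motifs in capitals. The stretches of Krt8 and Krt18 end where the annotated gene begins. That of Krt7 lies within the annotated span of the gene, and whether coding exons lie further upstream was not checked.
Krt8, chr15:102004483-102004592, minus strand: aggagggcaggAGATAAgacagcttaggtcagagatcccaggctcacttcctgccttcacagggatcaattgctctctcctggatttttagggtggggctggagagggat
Krt18, chr15:102027966-102028179, plus strand: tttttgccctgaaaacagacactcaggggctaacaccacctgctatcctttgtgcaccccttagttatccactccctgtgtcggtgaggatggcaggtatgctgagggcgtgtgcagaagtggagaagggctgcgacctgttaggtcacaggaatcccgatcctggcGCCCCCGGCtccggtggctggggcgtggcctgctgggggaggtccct
Krt7, chr15:101412153-101412401, plus strand: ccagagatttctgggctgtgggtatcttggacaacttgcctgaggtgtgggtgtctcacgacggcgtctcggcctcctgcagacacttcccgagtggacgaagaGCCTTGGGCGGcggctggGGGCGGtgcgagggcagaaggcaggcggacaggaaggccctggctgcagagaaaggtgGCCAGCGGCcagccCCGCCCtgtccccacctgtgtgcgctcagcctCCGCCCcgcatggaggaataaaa

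Both strands were searched. The letters taken for the TEAD factors were GGAATG, those for the AP-2 factors such as Tfap2c were GCCNNNGGC, and those for the GATA factors were AGATAA. The letters for AP-1 were TGANTCA, those for SP1 were GGGCGG, and those for the ETS factors such as Elf5 were CCGGAAG. For the TATA box the letters were TATAAA. Krt8 had 1 GATA match and, outside the stretch shown, 2 TATA box matches, at -3 and -1 from the RefSeq start. These 2 matches overlap on opposite strands. Krt18 had 1 AP-2 match, and Krt7 had 2 AP-2 and 4 SP1 matches, of which 1 pair overlaps in the capital run of 11 letters. The TEAD, AP-1 and ETS letters were in none of the 3 keratin windows. Among all 32851 RefSeq windows of the same length, 16.6% held the AP-2 letters, 11.2% the GATA letters, 35.7% the SP1 letters, 14.7% the TEAD letters, 13.6% the TATA box letters, 8.86% the ETS letters and 7.81% the AP-1 letters. Of the factor genes, the window of Cdx2 had 1 AP-2 match, that of Gata3 had 3 AP-2 and 2 SP1 matches, and the first of 2 windows of Elf5 had 1 TEAD match. A match of this length is a description of the letters, and binding was not measured. The table of promoters matched 7 of the 10 genes, and Krt19, Hand1 and Tfap2c are named only.

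The deposited FPKM values of the Cct5 KD libraries were not independent of those of Cct7 KD. In both pairs of same-numbered libraries nearly every gene's Cct5 KD value was at least 1.125 times its Cct7 KD value, 449 and 427 genes were exactly at that multiple, and 15 genes fell below it. The multiple made up 71.3% of the Cct5 KD total. What is left after taking it off, called the remainder below, was therefore also set against Cct5 KD Ctr, with the libraries brought to 1 scale by the median of their gene ratios, and the Cct5 KD results on the keratins and factors are given with the Cct7 KD multiple and without it. The FPKM total was 744177 to 745912 in Cct5 KD and 495553 to 496684 in its controls, and 471748 to 472868 in Cct7 KD and 490071 to 496748 in its controls. The depth was estimated from the steps of low values at about 20800000 and 18900000 fragments for Cct7 KD. It came to 22300000 and 23400000 fragments for the Cct7 KD Ctr pair, and to 54700000 and 21200000 fragments for the Cct5 KD Ctr pair. No depth could be read from the Cct5 KD libraries as deposited. The targeted transcripts were lower in the cells with their own hairpin. Cct7 averaged 16.1 ± 2.41 FPKM in Cct7 KD and 275 ± 7.86 FPKM in its controls. Cct5 averaged 72.1 ± 1.88 FPKM in Cct5 KD and 368 ± 0.535 FPKM in its controls (SD, n = 2 each). Cct5 is among the 15 genes below the multiple, so it has no remainder.

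Knockdown of Cct7 was set against its vector control to ask which of the 10 genes changed with it. All tests are limma's moderated test on log2(FPKM + 1), fitted over every gene of a table with a mean of at least 1 FPKM, with Benjamini-Hochberg adjustment over all of them and a threshold of 0.05. Of the 10 genes, 7 were tested in Cct7 KD, 5 rose and 2 fell, while Cdx2, Elf5 and Gata3 were under 1 FPKM. Over all 13588 genes tested, 49.3% rose and 32.0% fell, so a call in itself sets no gene apart here. At a change of at least 2-fold, 4 of the 7 rose, all of them keratins, and 1 fell, against 13.5% and 6.60% of all genes. The median log2 change of the 7 was 1.97, beside 0.15 over all genes tested. Median-of-ratios scaling moved the median of all genes to -0.07 and the shares to 37.1% rising and 44.0% falling, and the 4 keratins, Eomes and Tfap2c kept their direction and their calls under it. The sequencing was of bulk RNA, in which more cells with a transcript and more transcript per cell cannot be told apart.

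Among the type II chains, Krt8 was at 105 and 107 FPKM in Cct7 KD, against 8.63 and 9.42 FPKM in the controls. Both knockdown libraries lay far above both controls, 11.7-fold in the means, with a log2 change of 3.41 (SE 0.0460, adjusted p = 1.12e-06). Krt7, a type II chain of ducts, bladder and placenta, was at 43.3 and 49.3 FPKM in Cct7 KD and at 10.2 and 12.0 FPKM in the controls. This was a 4.18-fold difference without overlap (log2 change 1.97, SE 0.0915, adjusted p = 1.63e-05). In the controls Krt7 was the more abundant of the type II pair, with 1.23 ± 0.0642 times the level of Krt8 per length of transcript, and in Cct7 KD it had 0.437 ± 0.0323 times (SD, n = 2 each).

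The type I chains moved the same way. Krt18, the usual partner of Krt8, was at 101 and 100.2 FPKM in Cct7 KD and at 15.7 and 16.3 FPKM in the controls, a 6.29-fold difference (log2 change 2.58, SE 0.0316, adjusted p = 9.49e-07). Krt19, the smallest keratin, was at 395 and 405 FPKM in Cct7 KD and at 26.9 and 29.4 FPKM in the controls. It was the most abundant of the 4 in every library, and its difference of 14.2-fold gave a log2 change of 3.78 (SE 0.0452, adjusted p = 9.03e-07). From the top of all 20897 genes ordered by level, Krt19 stood 134th and 133rd in Cct7 KD and 3017th and 2804th in the controls. Ordered by rise, Krt19 was 15th, Krt8 24th, Krt18 107th and Krt7 292nd among the 13588 genes tested.

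**Figure D1:**
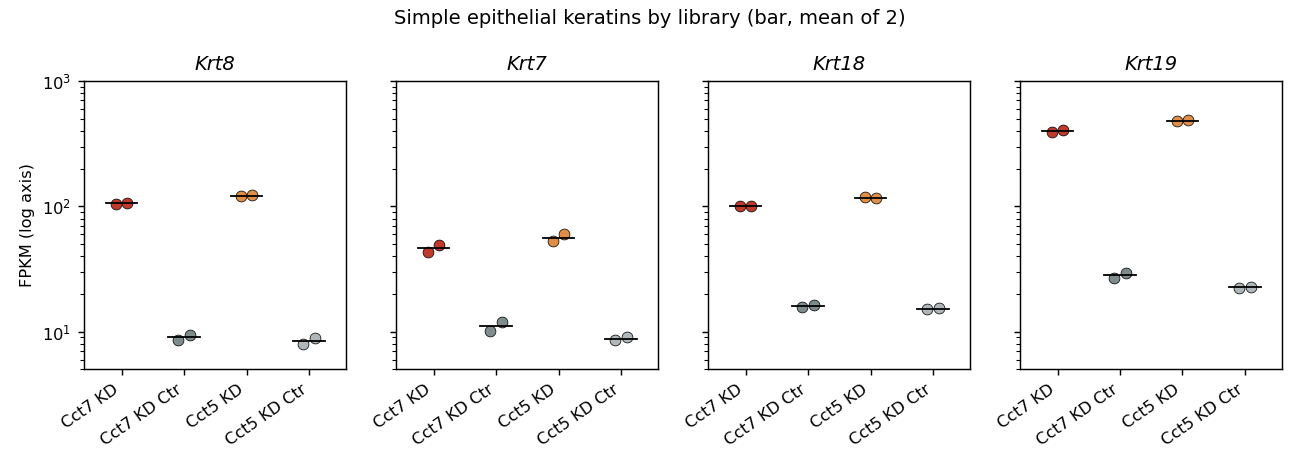
FPKM of Krt8, Krt7, Krt18 and Krt19 on a log axis, with 1 point per library, a line at the mean of 2 and the knockdown group left of its control in each pair. Every knockdown library lies above every control library of its pair, and Krt19 reaches 395 to 405 FPKM in Cct7 KD against 26.9 to 29.4 FPKM in Cct7 KD Ctr.

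The 4 keratins together made up 643 and 662 FPKM in Cct7 KD, against 61.5 and 67.1 FPKM in the controls. They did not rise in proportion. The summed type I level was 3.29 ± 0.0887 times the summed type II level in Cct7 KD and 2.20 ± 0.0906 times in the controls (SD, n = 2 each). Krt19 carried 61.3% and 61.2% of the keratin sum in Cct7 KD and 43.8% in both controls, and it stood at 3.97 ± 0.0958 times Krt18 in Cct7 KD and 1.76 ± 0.0576 times in the controls. Within the embryonic pair, Krt8 and Krt18 were nearly level in Cct7 KD, at a ratio of 1.05 ± 0.0250, while Krt8 had 0.564 ± 0.0187 of the Krt18 level in the controls. With 2 libraries against 2, an exact two-sided permutation test of a single ratio cannot give a p below 0.333, so these ratios are given with their spread alone, and in each of them the groups do not overlap. They compare FPKM values, which are per length of transcript, and say nothing of protein.

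**Figure D2:**
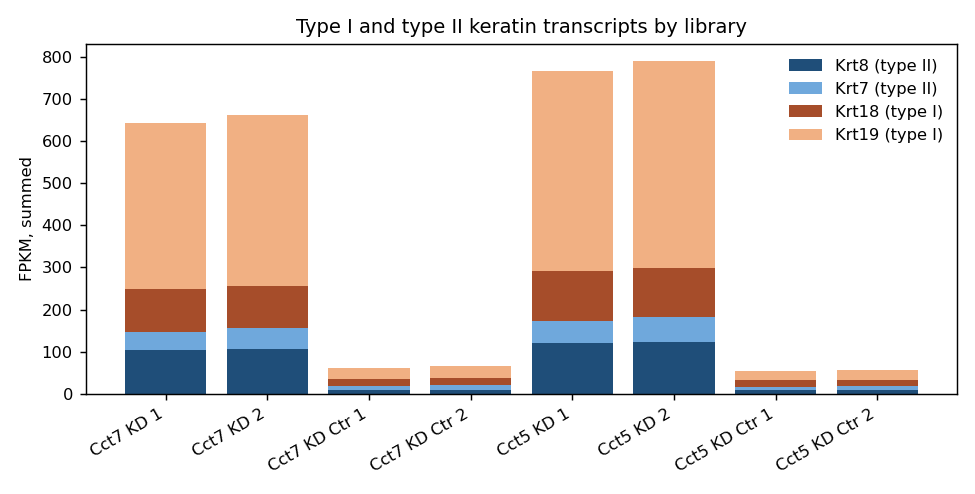
Summed FPKM of the 4 keratins in each library on a linear axis from 0, as stacked bars of the type II chains Krt8 and Krt7 and the type I chains Krt18 and Krt19, with 1 bar per library and each knockdown left of its control. The bars reach 643 and 662 FPKM in Cct7 KD against 61.5 and 67.1 FPKM in Cct7 KD Ctr, and 767 and 791 FPKM in Cct5 KD against 54.2 and 56.1 FPKM in Cct5 KD Ctr, and Krt19 is the largest piece of each bar.

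Among the factors, Tfap2c was the only 1 of the 6 above 2 FPKM in any library. It was at 10.5 and 11.5 FPKM in Cct7 KD, against 27.1 and 26.1 FPKM in the controls. Both knockdown libraries were below both controls, 2.42-fold in the means (log2 change -1.20, SE 0.0527, adjusted p = 1.37e-05). The direction is opposite to that of all 4 keratins in the same libraries.

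Eomes, a T-box factor of trophectoderm and of mesendoderm, was at 1.04 and 0.931 FPKM in Cct7 KD and at 1.66 and 1.43 FPKM in the controls (log2 change -0.36, SE 0.0939, adjusted p = 0.0151). This call rests on single libraries, since without Cct7 KD Ctr 1 the adjusted p was 0.0837 and without Cct7 KD 2 it was 0.0673. Hand1, a basic helix-loop-helix factor, was at 1.65 and 1.70 FPKM in Cct7 KD and at 1.16 and 1.19 FPKM in the controls (log2 change 0.30, SE 0.0801, adjusted p = 0.0162). The adjusted p for Hand1 was between 0.0540 and 0.0699 when any 1 of the 4 libraries was left out and 0.130 after median-of-ratios scaling.

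The other 3 factors, Cdx2, Elf5 and Gata3, were all under 1 FPKM, and Cdx2 was near the limit of detection. Cdx2 had 0.213 and 0.141 FPKM in Cct7 KD, about 10 and 6 fragments, against 0 and 0.0759 FPKM, or 0 and 4 fragments, in the controls. Its means differed 4.66-fold. The 95% exact Poisson intervals, which cover counting error only, run from 4.79 to 18.4 and from 2.20 to 13.1 fragments in Cct7 KD and reach 3.69 and 10.2 fragments in the controls, so those of Cct7 KD 1 and Cct7 KD Ctr 1 do not overlap, while each of the other pairs of a knockdown and a control library does. Elf5, an ETS factor, had 0.247 and 0.251 FPKM in Cct7 KD and 0.124 and 0.203 FPKM in the controls. Gata3 had 0.103 and 0.0972 FPKM in Cct7 KD and 0.292 and 0.307 FPKM in the controls, so both knockdown libraries were the lower ones. When no gene was left out for a low level, the log2 change was 0.18 for Cdx2 (adjusted p = 0.0476), 0.10 for Elf5 (adjusted p = 0.168) and -0.24 for Gata3 (adjusted p = 0.00787).

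**Figure D3:**
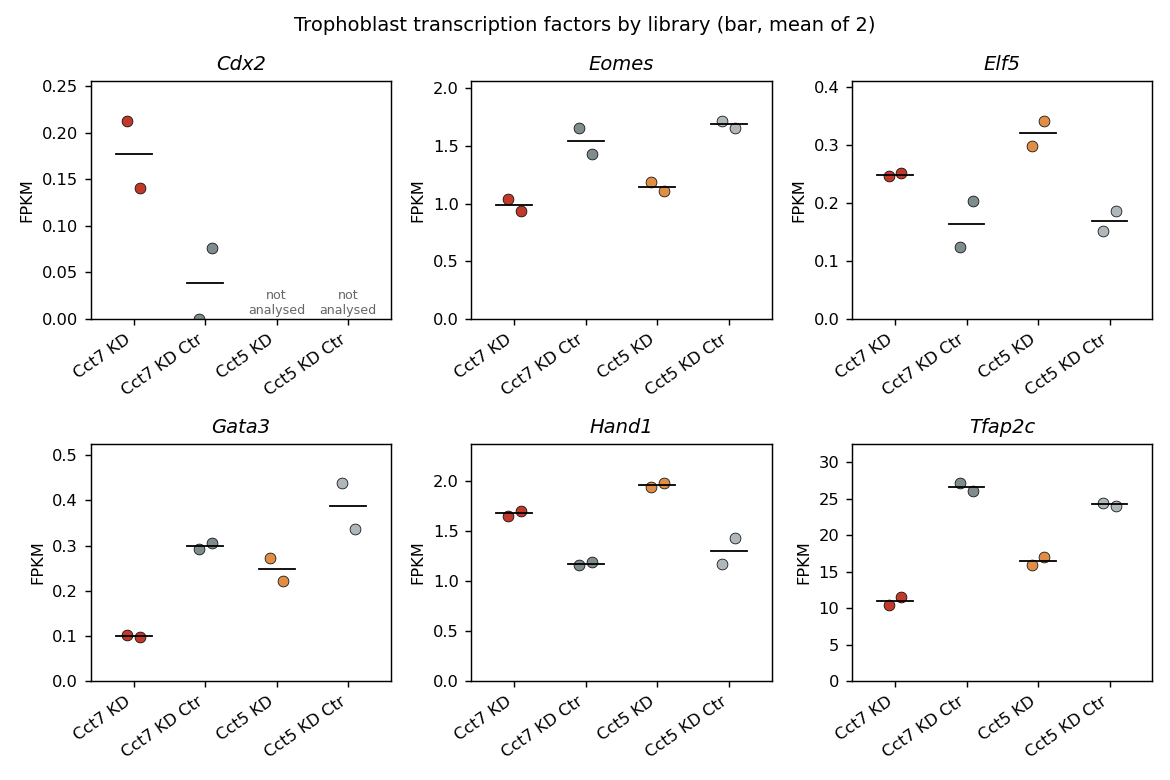
FPKM of Cdx2, Eomes, Elf5, Gata3, Hand1 and Tfap2c in each library, 1 panel per gene with its own linear axis from 0, a line at the mean of 2 and the knockdown group left of its control. Tfap2c is lower in both knockdowns, at 10.5 and 11.5 FPKM in Cct7 KD against 27.1 and 26.1 FPKM in Cct7 KD Ctr, and Cdx2, Elf5 and Gata3 stay under 1 FPKM in every library shown.

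The low factors Eomes, Elf5, Gata3 and Hand1 summed to 3.04 and 2.98 FPKM in Cct7 KD and 3.24 and 3.13 FPKM in the controls. Beside a keratin sum of 643 to 662 FPKM in Cct7 KD, none of the 6 factors other than Tfap2c passed 2 FPKM. In each of the 10 genes the 2 Cct7 KD libraries were both above or both below the 2 control libraries. This was also so for 90.6% of all genes tested, a share that leaves out genes as low as Cdx2, Elf5 and Gata3.

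In Cct5 KD the deposited values gave the same directions for the keratins and Tfap2c. Of the 9 genes analysed there, 7 were tested, 5 rose and 2 fell, where 78.0% of the 14179 genes tested rose and 11.3% fell. At 2-fold or more, 4 of the 7 rose and 0 fell, beside 31.2% and 2.17% of all genes. The 2 genes under 1 FPKM were Elf5 and Gata3, and Cdx2 was not analysed here for Cct5 KD. The median log2 change of the 7 was 2.55, beside 0.68 over all genes tested. After median-of-ratios scaling the median of all genes was -0.05, 37.7% of genes rose and 43.7% fell, and the 4 keratins, with log2 changes of 1.76 to 3.54, and the 2 lower genes kept their direction and their calls, while Hand1 did not.

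Krt8 was at 120 and 123 FPKM in Cct5 KD and at 7.98 and 8.85 FPKM in the controls (log2 change 3.70, SE 0.0491, adjusted p = 2.60e-07). Krt7 was at 52.8 and 59.9 FPKM in Cct5 KD and at 8.59 and 8.99 FPKM in the controls (log2 change 2.55, SE 0.0643, adjusted p = 8.39e-07). For both type II chains the knockdown libraries were far above the controls. Krt18 was at 118 and 117 FPKM in Cct5 KD and at 15.2 and 15.4 FPKM in the controls (log2 change 2.86, SE 0.0244, adjusted p = 1.54e-07). Krt19 was at 477 and 491 FPKM in Cct5 KD and at 22.5 and 22.9 FPKM in the controls, a 21.3-fold difference (log2 change 4.36, SE 0.0247, adjusted p = 9.41e-08). The type I chains were higher as well, and the type I to type II ratio was 3.38 ± 0.0794 in Cct5 KD and 2.21 ± 0.0921 in the controls (SD, n = 2 each).

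Without the Cct7 KD multiple, the keratins parted. The remainder held 2.13% and 1.96% of the deposited Cct5 KD level of Krt8, 3.41% and 3.58% of Krt18, 7.61% and 7.38% of Krt7 and 6.85% and 7.27% of Krt19. On the common scale Krt8 was at 4.13 and 3.86 in the remainder and at 4.93 and 5.47 in the controls, and it fell (log2 change -0.31, adjusted p = 0.00307). Krt18 was at 6.46 and 6.68 in the remainder and at 9.37 and 9.49 in the controls, and it fell too (log2 change -0.46, adjusted p = 5.09e-05). For the pair Krt8 and Krt18 the direction in Cct5 KD was therefore reversed once the multiple was taken off.

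Krt7 and Krt19 stayed higher. Krt7 was at 6.47 and 7.06 in the remainder and at 5.30 and 5.55 in the controls (log2 change 0.27, adjusted p = 0.00308). Krt19 was at 52.6 and 57.0 in the remainder and at 13.9 and 14.1 in the controls (log2 change 1.89, adjusted p = 3.46e-07), and stood 109th by rise among 11688 genes tested. The type I to type II ratio of the remainder was 5.57 and 5.84, and Krt19 alone held 75.5% and 76.4% of its keratin sum.

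Of the factors in Cct5 KD, Tfap2c was at 15.9 and 17.0 FPKM, against 24.5 and 24.0 FPKM in the controls (log2 change -0.54, SE 0.0411, adjusted p = 5.03e-05). It was lower in the remainder as well, at 6.56 and 6.43 against 15.1 and 14.8 in the controls on the common scale (log2 change -1.09, adjusted p = 1.00e-06). Tfap2c thus was lower with the multiple and without it. Eomes was at 1.19 and 1.11 FPKM in Cct5 KD and 1.72 and 1.65 FPKM in the controls (log2 change -0.32, adjusted p = 0.00978), and without Cct5 KD Ctr 1 the adjusted p was 0.0620.

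Hand1 was at 1.94 and 1.98 FPKM in Cct5 KD and at 1.17 and 1.43 FPKM in the controls (log2 change 0.36, adjusted p = 0.00993). With every library brought to a common FPKM total its log2 change was 0.00 (adjusted p = 0.984), and after median-of-ratios scaling it was -0.15 (adjusted p = 0.202), while without Cct5 KD Ctr 1 it was 0.28 (adjusted p = 0.0581). Elf5 was at 0.299 and 0.342 FPKM in Cct5 KD and 0.152 and 0.186 FPKM in the controls, and Gata3 at 0.273 and 0.223 FPKM in Cct5 KD and 0.438 and 0.337 FPKM in the controls. On the common scale Hand1 was at 0.127 and 0.1003 in the remainder and at 0.725 and 0.886 in the controls, the opposite direction to the deposited values, and Eomes was at 0.0267 and 0.0920 in the remainder and at 1.06 and 1.02 in the controls. Neither these nor Elf5 and Gata3 reached the level tested in the remainder. Over the 5 genes tested in the remainder 2 rose and 3 fell, where 41.6% of all genes rose and 43.3% fell.

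**Figure D4:**
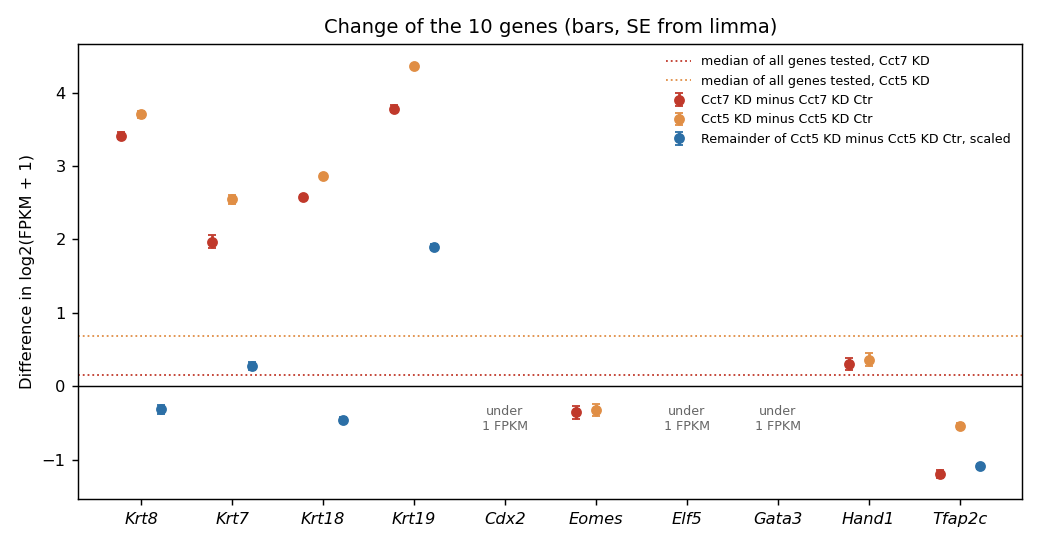
Log2 change (knockdown minus control, on log2(FPKM + 1)) with its standard error as bars for each of the 10 genes in Cct7 KD, in Cct5 KD and in the scaled Cct5 KD remainder, with dotted lines at the median of all genes tested and untested genes left without a point. Krt8 and Krt18 are above 0 in both knockdowns and below 0 in the remainder, at -0.31 and -0.46, and Tfap2c is below 0 in all 3.

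Few other keratins were present. Of 19 other keratin genes listed with Cct7 KD, 13 were under 1 FPKM in all 4 libraries and the highest value of any was 9.29 FPKM. Krt20, a type I keratin of gut and urothelial lining, averaged 8.73 ± 0.798 FPKM in Cct7 KD and 0.218 ± 0.119 FPKM in the controls (SD, n = 2 each, log2 change 3.00, adjusted p = 7.15e-06), and it stayed higher in the Cct5 KD remainder (log2 change 1.89, adjusted p = 4.03e-06). Krt23, another type I keratin, averaged 6.24 ± 0.125 FPKM in Cct7 KD and 0.447 ± 0.0659 FPKM in the controls. Krt42 went the other way, with 0.261 ± 0.0286 FPKM in Cct7 KD and 6.03 ± 0.163 FPKM in the controls (log2 change -2.48, adjusted p = 5.09e-06). Of the 9 other intermediate filament genes tested, 4 rose and 4 fell in Cct7 KD, with Des not passing the test, where 49.3% of all genes tested rose and 32.0% fell. Among them Vim, the mesenchymal filament gene, averaged 63.7 ± 2.18 FPKM in Cct7 KD and 32.7 ± 0.362 FPKM in the controls.

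Desmosomes anchor keratin filaments to cell contacts, and of 10 genes of desmosomes and keratin linkers tested, 7 rose and 3 fell in Cct7 KD, with a median log2 change of 1.07, beside 49.3% of all genes rising and 32.0% falling. The desmosomal cadherin Dsc2 averaged 16.0 ± 0.267 FPKM in Cct7 KD and 1.02 ± 0.0837 FPKM in the controls, and the linker Dsp averaged 22.2 ± 0.185 FPKM in Cct7 KD and 8.47 ± 0.218 FPKM in the controls (SD, n = 2 each). Both were higher in the remainder as well, by 1.62 and 0.37 on the log2 scale, whereas Dsg2, at 27.1 ± 0.0335 FPKM in Cct7 KD and 8.91 ± 0.124 FPKM in the controls, was lower there (log2 change -0.19, adjusted p = 0.00492). Jup (plakoglobin) fell, to 9.67 ± 0.253 FPKM in Cct7 KD, against 33.0 ± 1.63 FPKM in the controls (log2 change -1.67, adjusted p = 4.04e-06). Pkp2 and Evpl were the others that fell in Cct7 KD.

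**Figure D5:**
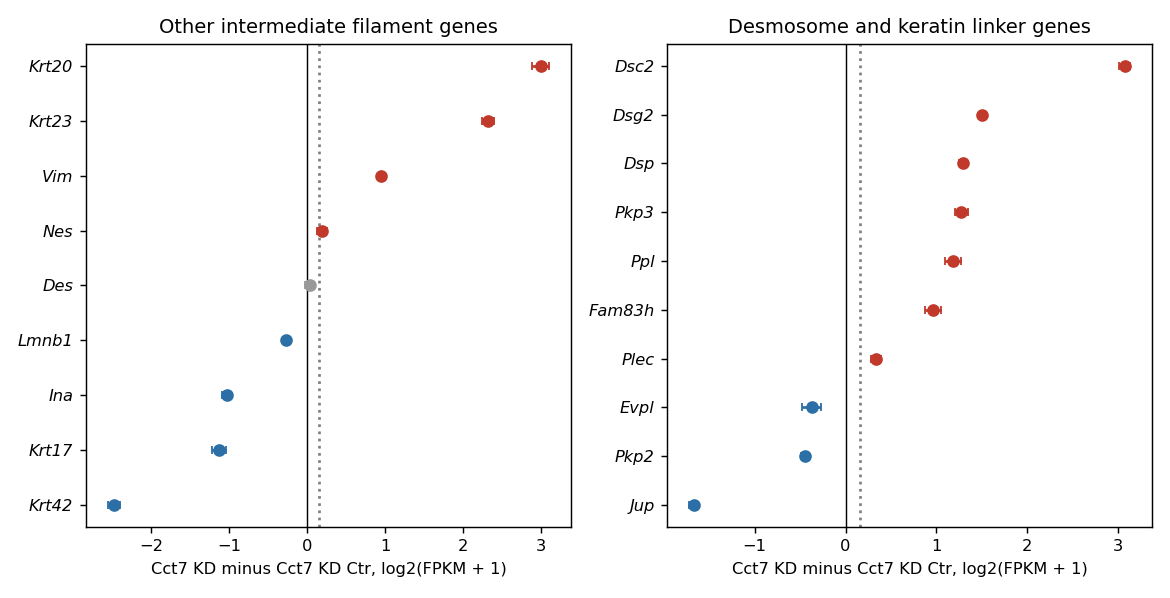
Log2 change in Cct7 KD (knockdown minus control, on log2(FPKM + 1)) with its standard error as bars for the tested genes of 2 lists, other intermediate filament genes on the left and desmosome and keratin linker genes on the right, with genes that rose in red, genes that fell in blue, Des, which did not pass the test, in grey, and a dotted line at 0.15, the median of all genes tested. Krt20 at 3.00 and Dsc2 at 3.07 are the highest of their lists, and Krt42 at -2.48 and Jup at -1.67 the lowest.

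Of 12 further trophoblast regulators tested, 9 rose and 3 fell in Cct7 KD, with a median log2 change of 0.69, against 49.3% and 32.0% of all genes. The placental homeobox gene Esx1 averaged 22.5 ± 0.284 FPKM in Cct7 KD and 5.19 ± 0.250 FPKM in the controls, and Tead4, the TEAD factor that acts upstream of Cdx2, averaged 7.35 ± 0.126 FPKM in Cct7 KD and 3.37 ± 0.170 FPKM in the controls (SD, n = 2 each). Those that fell were Id2, Ascl2 and Sox15, of which Id2 averaged 4.91 ± 0.357 FPKM in Cct7 KD and 18.4 ± 1.25 FPKM in the controls. In the remainder 2 of 11 rose and 8 fell, against 41.6% and 43.3% of all genes, and Esx1 was among those that fell (log2 change -0.26, adjusted p = 0.0185).

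Of 20 genes of placental differentiation, 12 were listed and 7 tested, of which 6 rose and 1 fell in Cct7 KD, against 49.3% and 32.0% of all genes. Synb, Tpbpa, Prl3d1, Prl3b1, Prl2c2, Ctsq, Ctsj and Hsd3b6 had no values here. Gcm1, Syna, Plac1, Pgf and Flt1 were too low to test. Gcm1 averaged 0.304 FPKM in Cct7 KD and 0.265 FPKM in the controls. Flt1 averaged 0.996 and 0.572 FPKM and Pgf 0.668 and 1.07 FPKM, while Syna and Plac1 overlapped. Peg10, a paternally expressed gene needed for the placenta, averaged 630.4 ± 3.77 FPKM in Cct7 KD and 56.2 ± 1.60 FPKM in the controls, and Rhox6, a placental homeobox gene, 26.7 ± 0.218 FPKM in Cct7 KD and 2.88 ± 0.00677 FPKM in the controls (SD, n = 2 each). Phlda2, which limits placental growth, fell to 7.66 ± 0.0477 FPKM in Cct7 KD, against 32.0 ± 0.935 FPKM in the controls. In the remainder Peg10 was lower (log2 change -0.49, adjusted p = 6.57e-06) and Rhox6 higher (log2 change 0.57, adjusted p = 0.00466).

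Of the 11 genes tested that feed into Cdx2 and Gata3 through the Hippo and Notch pathways, 6 rose and 4 fell in Cct7 KD, with a median log2 change of 0.41, which is near the 49.3% and 32.0% of all genes. Yap1 did not pass the test, at 46.5 ± 0.323 FPKM in Cct7 KD and 45.1 ± 0.242 FPKM in the controls. Under median-of-ratios scaling Yap1 fell (log2 change -0.21), which makes 5 that fell, and 8 trophoblast regulators, 6 desmosome and linker genes and 3 filament genes rose, while 5 filament genes fell. The angiomotin family gene Amotl2 averaged 23.9 ± 0.590 FPKM in Cct7 KD and 4.52 ± 0.218 FPKM in the controls, and the Yap1 relative Wwtr1 23.4 ± 0.122 FPKM in Cct7 KD and 11.8 ± 0.186 FPKM in the controls (SD, n = 2 each). The pluripotency factors known to oppose trophoblast genes all fell, 4 of 4. Pou5f1 averaged 119 ± 0.137 FPKM in Cct7 KD and 452 ± 9.23 FPKM in the controls, and Nanog 68.8 ± 2.27 FPKM in Cct7 KD and 299.5 ± 0.927 FPKM in the controls. The same 4 of 4 fell in Cct5 KD and in its remainder, where Pou5f1 fell by 0.21 and Nanog by 2.56 on the log2 scale. Of all genes tested, 11.3% fell in Cct5 KD and 43.3% in the remainder.

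Keratins are also made by other epithelia, so markers of other lineages were read in the same libraries. Mesoderm markers, 5 of 10 listed, were all under 1 FPKM and summed to 0.956 to 1.05 FPKM in Cct7 KD and 1.00 to 1.11 FPKM in the controls. Primitive endoderm markers, 12 of 13 listed, summed to 39.4 to 41.6 FPKM in Cct7 KD and 38.7 to 38.8 FPKM in the controls. Col4a1, Lama1 and Hnf4a made up most of each sum, so it says little of the other markers. Of these 7 were tested, 5 rose and 2 fell, where 49.3% and 32.0% of all genes did, and after median-of-ratios scaling 3 rose. Afp was at 5.28 ± 0.668 FPKM in Cct7 KD and 0.0637 ± 0.00188 FPKM in the controls while Gata4 averaged 1.19 FPKM in Cct7 KD and 0.624 FPKM in the controls. Gata6 was 2.93-fold and Pdgfra 2.81-fold higher in Cct7 KD, as were, under 1 FPKM, Sox7 (4.65-fold) and Foxa2 (9.89-fold). Dab2 and Col4a1 were higher by less. Hnf4a was 3.31-fold, Cubn 8.73-fold and Lama1 1.41-fold lower, and Sox17 overlapped. Markers of surface ectoderm and basal epithelium, 8 of 10 listed, summed to 26.9 to 27.0 FPKM in Cct7 KD and 51.7 to 53.0 FPKM in the controls, and 1 of 4 tested rose while 3 fell. The lower sum comes from Esrp1, a splicing factor of epithelia, at 4.05 ± 0.273 FPKM in Cct7 KD and 30.7 ± 1.12 FPKM in the controls. Krt17, Grhl2 and Ovol1 were lower too, and Trp63 overlapped. Krt5 was 14.9-fold, Krt15 2.33-fold and Grhl3 1.51-fold higher in Cct7 KD, Krt5 and Krt15 from control levels under 1 FPKM. Feeder fibroblast markers, 4 of 8 listed, summed to 6.65 to 6.84 FPKM in Cct7 KD and 8.91 to 9.59 FPKM in the controls. The lower sum comes from Thy1, while Col1a1 was 1.29-fold, Col1a2 3.96-fold and Postn 10.3-fold higher in Cct7 KD, all of them under 1 FPKM. In Cct5 KD Col1a1 was 2.31-fold and Col1a2 2.97-fold higher and Col3a1 was listed at 0 in both libraries. In Cct5 KD the endoderm markers summed to 52.8 to 55.3 FPKM and in its controls to 35.8 to 37.0 FPKM, and the surface ectoderm markers to 34.4 to 34.5 FPKM in Cct5 KD and 50.2 to 50.3 FPKM in its controls. The mesoderm markers summed to 1.52 to 2.14 FPKM in Cct5 KD and 1.03 to 1.41 FPKM in its controls, and the feeder markers to 9.30 to 9.38 FPKM in Cct5 KD and 9.41 to 9.99 FPKM in its controls. The FPKM total of Cct5 KD is itself above that of its controls, by 744177 to 745912 against 495553 to 496684. In the remainder 0 of 4 tested endoderm markers rose and 4 fell, with a median log2 change of -0.66, and all 4 tested surface ectoderm markers fell. Of all genes tested in the remainder, 41.6% rose and 43.3% fell. The part of the endoderm and feeder markers in the keratin result was not tested.

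The genes beside the Krt8 and Krt18 pair were read in the same libraries. The next keratin gene, Krt78, 42411 bases from Krt8, averaged 0.0147 FPKM in Cct7 KD and 0.0632 FPKM in the controls, too low to compare. Eif4b, 41746 bases beyond Krt18, averaged 174 ± 4.29 FPKM in Cct7 KD and 292 ± 1.54 FPKM in the controls, and 312 ± 8.67 FPKM in Cct5 KD and 278 ± 0.163 FPKM in its controls (SD, n = 2 each). It was thus lower in Cct7 KD, unlike Krt8 and Krt18, and higher in Cct5 KD as deposited. A pseudogene, Krt8-ps, was listed with 0.662 and 0.672 FPKM in Cct7 KD and 0 and 0.136 FPKM in the controls, and reads of Krt8 and this copy may have been split in counting. The annotation also places antisense genes over Krt7, Krt8, Eomes and Gata3. The library kit marks the strand, but how the counting used it is not stated.

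The genes whose 8 library values followed Krt8 most closely were Peg10, Pmp22, Gm21818, Slc25a24 and Aqp3. Likeness was the root mean square distance between log2(FPKM + 1) values, each gene centred on its mean over the 8 libraries, and it was 0.0593 for Peg10 and 0.0886 for Aqp3, the water and glycerol channel of epithelia. Among 13816 genes Krt19 ranked 41st, Krt18 93rd and Krt7 221st by likeness to Krt8, and Tfap2c 13186th. The order is a description, since the Cct5 KD values carry the Cct7 KD multiple and the 8 libraries are not independent.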

How the data were processed

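Per the submitters' processing notes, HTSeq and the mm10 build were used; the aligner, versions, annotation, transcript lengths and filters were not stated. The authors deposited FPKM values, 1 table per knockdown with its controls, of 21055 and 20909 rows, and 19896 identifiers stand in both. Identifiers on more than 1 row, 8 with Cct5 KD and 6 with Cct7 KD, were dropped. Symbols, positions and strands come from GENCODE M21 (GRCm38), and 56 identifiers had no symbol.

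Groups were compared within a table with limma 3.58.1 in R 4.3.3, on log2(FPKM + 1) with an intensity trend, over genes averaging 1 FPKM or more in its 4 libraries. Fold changes on this scale understate the change of low genes. FPKM values are not counts, so no count model was used. The test was checked on simulated data. Depth was estimated from the step of FPKM in genes of 1 transcript, whole to within 0.05 fragments; 1 fragment in a transcript of 1 kb equals 0.0183 to 0.0530 FPKM. The remainder of Cct5 KD was an alternative, as were other scalings, filters, pseudocounts, the replicate block and leaving out each library. The genes described and all companion lists were chosen with earlier results of these data known. Named genes are the 10 genes, the 2 targets, in each companion list up to 4 tested genes with the smallest p in Cct7 KD, and the 5 genes most like Krt8; Cdx2 was too low for a likeness. Other names were picked after their values were seen.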

Additional observations from a re-analysis of the deposited data

Results flagged for a closer look

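For 3 of 48 named genes tested, every Cct7 KD library moved one way against its controls and every Cct5 KD library the opposite way. Pgf, too low to test, did the same, averaging 0.668 and 1.07 FPKM in Cct7 KD and its controls. In Cct5 KD and its controls Pgf averaged 1.15 and 0.793 FPKM. The gene Cct7 had a log2 change of -4.02 in Cct7 KD and 0.10 in Cct5 KD. Lama1, a laminin chain of the endoderm basement membrane, had a log2 change of -0.43 in Cct7 KD and 0.15 in Cct5 KD. Eif4b, the translation factor gene beyond Krt18, had a log2 change of -0.74 in Cct7 KD and 0.17 in Cct5 KD. The difference between the knockdowns was not tested, since the tables stand apart and the Cct5 KD values carry the Cct7 KD multiple. After median-of-ratios scaling the Cct5 KD values were -0.72 for Cct7, -0.59 for Lama1 and -0.66 for Eif4b. With the remainder in place of Cct5 KD they were 1.39 for Cct7, -0.25 for Lama1 and 0.12 for Eif4b. None of the 9 trophoblast and keratin genes analysed in both knockdowns moved in opposite directions in them as deposited, and Cdx2 could not be compared. Groups of 2 libraries are too small for a test of single libraries that stand apart.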

How the results depend on the processing

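Of 906 values recomputed for 48 tested genes, 871 kept their direction and their side of the threshold, 15 lost their call in the same direction, 1 gained one, and 19 reversed, all of these in Cct5 KD except Yap1 in Cct7 KD, at -0.21 after median-of-ratios scaling. With the remainder in place of Cct5 KD, the log2 change was -0.31 for Krt8, -0.46 for Krt18, -0.26 for Esx1, -0.49 for Peg10, -0.19 for Dsg2, -0.25 for Lama1, -0.40 for Col4a1, -1.20 for Grhl3 and -0.63 for Yap1, 4866 genes rose and 5057 fell, and 2 of the keratin and factor genes rose. After median-of-ratios scaling of Cct5 KD it was -0.15 for Hand1, -0.72 for Cct7, -0.59 for Lama1, -0.37 for Yap1 and -0.66 for Eif4b, and 5286 genes rose and 6123 fell. With a common FPKM total it was -0.48 for Cct7, -0.37 for Lama1, -0.14 for Yap1 and -0.42 for Eif4b, and 7120 genes rose and 4491 fell. Cct5 KD itself had 11057 rising and 1605 falling genes. At 2-fold or more 1837 genes rose and 897 fell in Cct7 KD and 4417 rose and 307 fell in Cct5 KD, and of the keratin and factor genes 1 fell in Cct7 KD and 0 in Cct5 KD. Leaving out each library in turn left 1 to 2 of these genes lower in Cct7 KD and 1 to 2 lower in Cct5 KD. The cause of these changes was not tested. Same-numbered libraries showed little shared shift across genes (correlation of deviations -0.0385 in Cct7 KD and -0.0144 in Cct5 KD). With 2 libraries per group this cannot tell whether they were handled together. The replicate block gave 6633 rising and 4335 falling genes in Cct7 KD and 11095 and 1645 in Cct5 KD. It changed none of the calls of these 48 genes. Values near 0.05 FPKM rest on about 1 fragment per kilobase in most libraries, which limits Cdx2, Elf5 and Gata3.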

Other observations

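Epithelial regulators outside the keratins moved apart. Grhl3, a grainyhead factor of surface epithelium, averaged 15.9 ± 0.190 FPKM in Cct7 KD and 10.5 ± 0.511 FPKM in the controls (log2 change 0.55, limma adjusted p = 0.000147). Its relative Grhl2 averaged 3.95 ± 0.396 FPKM in Cct7 KD and 6.91 ± 0.234 FPKM in the controls (log2 change -0.68, limma adjusted p = 0.000452). In the Cct5 KD remainder both were lower, with log2 changes of -1.20 and -2.13.

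Of the genes most like Krt8, the channel gene Aqp3 averaged 106 ± 0.578 FPKM in Cct7 KD and 10.5 ± 0.602 FPKM in the controls, and the myelin protein gene Pmp22 averaged 14.4 ± 0.570 FPKM in Cct7 KD and 0.456 ± 0.0545 FPKM in the controls (SD, n = 2 each). Unlike Krt8, both were also higher in the remainder, with log2 changes of 2.20 for Aqp3 and 1.62 for Pmp22.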
